A study of Mus musculus with 2 samples.

Results

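Lhx2 and Lhx9 encode LIM-homeodomain transcription factors of the limb mesenchyme, and the accessible regions around both genes were described in embryonic mouse limb. For each gene the accessible regions were the DNase-seq peaks whose centre lay within 1 kb of one of its protein-coding starts (promoter peaks), within its annotated body, or farther away with its start as the nearest protein-coding start within 500 kb (distal peaks). These rules gave Lhx2 59 peaks in replicate 1 and 20 in replicate 2, and gave Lhx9 41 and 26. Together the genes held 100 of 174430 peaks in replicate 1 and 46 of 167369 in replicate 2, and they are 2 of 21853 protein-coding genes. The peaks were selected on the deposited peak calls of these libraries and the genes were chosen with earlier results of these data known, so peak numbers are given as a description, with no test.

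DNase-seq sequences the ends that DNase I leaves where it cuts open chromatin. The labels describe 1 group, limbs of B6NCrl embryos at 11.5 days with both sexes pooled, sampled as 2 biological replicates with 1 technical replicate each. They do not say how much forelimb and hindlimb each replicate held, and they name sequencing instruments for replicate 2 alone. Because tissue was assayed in bulk, a region open in fewer cells and a region less open in each cell cannot be told apart. Of 8 genes of the limb mesenchyme, all 8 (Prrx1, Prrx2, Msx1, Twist1, Tbx5, Tbx4, Pitx1 and Hand2) had a promoter peak shared by both libraries, against 66.8% of all protein-coding genes. A shared promoter peak was present at 2 of 4 ectoderm genes, 2 of 3 muscle precursor genes, 1 of 3 endothelial genes, 3 of 3 neural genes and 0 of 3 erythroid genes. With neural genes also at 3 of 3, a shared promoter peak does not by itself set the limb apart from other tissues.

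In the mouse limb bud, Lhx2 and Lhx9 are expressed in the distal mesenchyme beneath the apical ectodermal ridge, a strip of ectoderm that secretes fibroblast growth factors and drives outgrowth. With the related factor Lmx1b they help to keep up Sonic hedgehog expression in the posterior bud, and loss of the genes in combination shortens the limb. LIM-homeodomain proteins bind DNA through the homeodomain and recruit Ldb cofactors through their LIM domains. Both genes are also active outside the limb, Lhx2 in the forebrain, eye and hair follicle and Lhx9 in the gonad.

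Each peak carries a deposited signal, a value given by the authors that serves here only for describing and ranking peaks within a list. The percentile given with it is the share of peaks of the same library below that signal. The median signal was 47 in replicate 1 and 39 in replicate 2. A peak was found in both libraries where a peak of the other library overlapped it by at least 1 bp, and overlapping peaks were merged into shared regions. Positions are in GRCm38.p6 (mm10), and distances run in the direction of transcription from the first annotated start of each gene. Peaks of the same library that overlap each other are each counted in the peak numbers. Such pairs include those at −1.59 and −1.57 kb and at 6.35 and 6.39 kb of Lhx2 in replicate 1. Another lies at 7.53 and 7.55 kb of Lhx9 in replicate 2.

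Lhx2 (ENSMUSG00000000247.11) lies on the plus strand of chromosome 2, from 38339281 to 38369733, and is 30.5 kb long. Its 4 protein-coding starts lie at 0, 1.81, 11.5 and 13.3 kb. The bases common to both libraries in its leading shared regions and in the strongest distal region found in replicate 1 alone are printed here from the RefSeq copy of GRCm38.p6, plus strand. Capitals mark matches on either strand to words of factor binding sites, here the E-box word CATCTG, the second E-box word CAGCTG, and AGGGGGC from the site of the insulator protein CTCF. The promoter region (chr2:38350536-38350665) lies just upstream of the 11.5 kb start. The distal regions at 90.9 kb (chr2:38430076-38430205), 8.83 kb (chr2:38348056-38348165), 78.9 kb (chr2:38418076-38418225) and 36.9 kb (chr2:38376096-38376205) are 4 of the 5 leading ones by signal percentile, and the region at 9.15 kb (chr2:38348356-38348505) was found in replicate 1 alone. The remaining leading region, at 29.7 kb, lies in a coding exon and the strongest promoter peak in the 5′ UTR, and neither is shown.
Lhx2 promoter region, 11.3 kb: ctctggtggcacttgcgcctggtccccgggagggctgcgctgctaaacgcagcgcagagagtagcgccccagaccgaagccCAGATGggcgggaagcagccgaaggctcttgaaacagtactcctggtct
Lhx2 distal region, 90.9 kb: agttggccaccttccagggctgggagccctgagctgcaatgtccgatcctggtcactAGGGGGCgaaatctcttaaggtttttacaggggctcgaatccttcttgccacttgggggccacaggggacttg
Lhx2 distal region, 8.83 kb: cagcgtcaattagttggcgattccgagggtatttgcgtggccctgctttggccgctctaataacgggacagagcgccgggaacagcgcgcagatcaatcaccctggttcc
Lhx2 distal region, 78.9 kb: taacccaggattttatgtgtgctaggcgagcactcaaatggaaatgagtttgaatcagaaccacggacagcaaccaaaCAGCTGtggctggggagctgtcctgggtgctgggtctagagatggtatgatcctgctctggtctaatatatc
Lhx2 distal region, 36.9 kb: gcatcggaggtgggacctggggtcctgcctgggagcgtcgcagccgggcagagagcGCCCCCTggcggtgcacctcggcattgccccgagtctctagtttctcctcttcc
Lhx2 distal region found in replicate 1 alone, 9.15 kb: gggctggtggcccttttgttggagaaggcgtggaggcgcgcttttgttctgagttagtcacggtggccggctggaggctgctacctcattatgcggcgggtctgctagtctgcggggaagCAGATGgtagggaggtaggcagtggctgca

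Lhx9 (ENSMUSG00000019230.14) lies on the minus strand of chromosome 1, from 138825186 to 138848577, and is 23.4 kb long. Its 5 protein-coding starts form an upstream cluster at 0, 0.858 and 0.998 kb and a downstream cluster at 6.12 and 6.15 kb. A like choice of regions is printed for Lhx9, again on the plus strand and therefore opposite to the gene. It comprises the promoter region of the first start (chr1:138848696-138848805), the distal regions at 10.6 kb (chr1:138837956-138838085), 64.4 kb (chr1:138784136-138784265) and 13.0 kb (chr1:138835476-138835605), and the strongest distal region found in replicate 2 alone, at 4.85 kb (chr1:138843656-138843805). Capitals mark both E-box words, TGACAG of PBX and MEIS factors, and the longer CTCF word AGNNGGCAG. The remaining leading regions, at 10.2 and 4.15 kb, are not shown.
Lhx9 promoter region, −0.174 kb: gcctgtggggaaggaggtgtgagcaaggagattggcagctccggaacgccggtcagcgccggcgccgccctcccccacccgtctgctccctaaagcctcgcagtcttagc
Lhx9 distal region, 10.6 kb: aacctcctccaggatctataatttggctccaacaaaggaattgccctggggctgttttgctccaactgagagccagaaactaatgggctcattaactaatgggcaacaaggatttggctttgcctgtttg
Lhx9 distal region, 64.4 kb: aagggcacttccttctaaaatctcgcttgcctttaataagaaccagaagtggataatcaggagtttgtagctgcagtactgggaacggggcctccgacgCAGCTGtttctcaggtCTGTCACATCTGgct
Lhx9 distal region, 13.0 kb: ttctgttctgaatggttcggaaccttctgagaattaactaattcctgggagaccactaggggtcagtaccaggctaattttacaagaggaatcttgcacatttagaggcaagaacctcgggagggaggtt
Lhx9 distal region found in replicate 2 alone, 4.85 kb: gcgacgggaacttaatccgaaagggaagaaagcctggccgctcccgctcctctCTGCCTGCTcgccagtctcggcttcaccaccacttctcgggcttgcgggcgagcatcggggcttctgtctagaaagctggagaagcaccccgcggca

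At the Lhx2 promoters the libraries shared only the regions of the 11.5 kb start. Replicate 1 had 14 promoter peaks and replicate 2 had 2, a mean of 8 ± 8.49 (SD, n = 2), and 2 regions were shared. Over all protein-coding genes, 68.4% had a promoter peak in replicate 1, 68.7% in replicate 2 and 66.8% in both. Genes with at least as many promoter peaks as Lhx2 made up 0.0824% of all in replicate 1, 50.2% in replicate 2 and 41.3% for shared regions. A gene with several spread starts, such as Lhx2 or Lhx9, is searched for promoter peaks over more sequence than a gene with fewer. Promoter numbers were not scaled for this.

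The strongest Lhx2 peak in either library lay 11.8 kb from the first start, at chr2:38350976-38351125, in the 5′ UTR of exon 1 of the longest transcript. Its signal was 121 in replicate 1 (percentile 98.0) and 131 in replicate 2 (percentile 99.5). The neighbouring shared region, at chr2:38350516-38350685 just upstream of the 11.5 kb start, had a signal of 73 in both libraries. No replicate 2 peak lay within 1 kb of the other Lhx2 starts.

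The remaining 12 promoter peaks of Lhx2 were found in replicate 1 alone. Around the first start their signals were 28 at −0.690 kb, 27 at −0.630 kb, 40 at 0.230 kb and 39 at 0.670 kb. At the 1.81 kb start they were 42 at 1.17 kb and 34 at 1.59 kb. All of these lay below the library median of 47. Around the 11.5 and 13.3 kb starts the signals were 23 at 10.5 kb, 42 at 10.8 kb, 52 at 12.4 kb, 55 at 12.9 kb, 58 at 13.3 kb and 46 at 13.9 kb. The 3 of them between 12.4 and 13.3 kb, in exon 1 and intron 1, exceeded the library median.

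**Figure D1:**
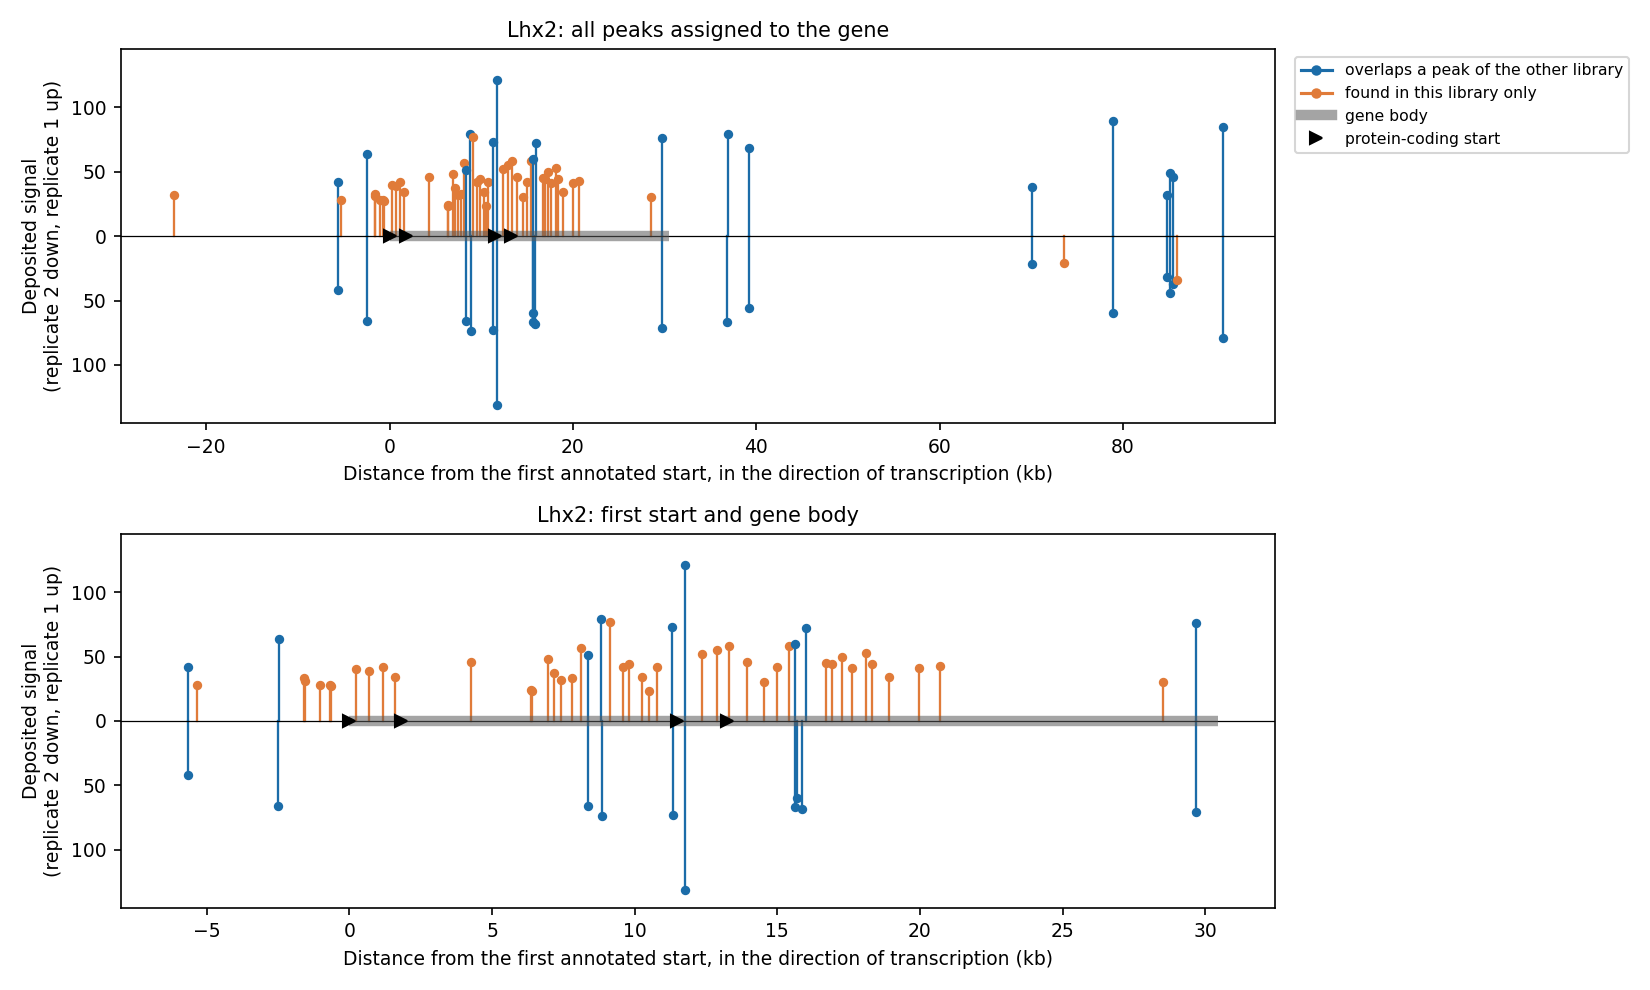
Deposited signal of every Lhx2 peak (vertical axis, replicate 1 upwards and replicate 2 downwards) against distance from the first annotated start in kb, for all peaks (upper panel) and for the gene body (lower panel). The 42 peaks found in replicate 1 alone (orange, upwards) crowd the gene body and its 5′ flank, while both libraries show the peak of 121 and 131 at 11.8 kb and the regions downstream of the gene.

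The distal peaks of Lhx2 numbered 45 in replicate 1 and 18 in replicate 2 (31.5 ± 19.1, SD, n = 2), with 15 shared regions. An equal or larger number was reached by 1.48% of all protein-coding genes in replicate 1, 8.73% in replicate 2 and 6.55% for shared regions. The median gene had 2 distal peaks in each library and 1 shared. A gene is searched for distal peaks over the sequence nearest to its starts, 118.8 kb for Lhx2 and 121.4 kb for Lhx9. Distal numbers were not scaled for this, here or for the gene lists below. Of the 15 shared regions, 5 lay in the gene body, 2 upstream and 8 downstream.

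Ranked by the mean of the percentiles in both libraries, the leading distal region of Lhx2 was the farthest, at 90.9 kb (chr2:38430056-38430225), with signals of 85 in replicate 1 and 79 in replicate 2. It lies within the lincRNA gene Gm13589. The second lay at 8.83 kb (chr2:38348016-38348205), inside the annotated body and overlapping the antisense gene Gm27197, with signals of 79 and 74. The third, at 29.7 kb (chr2:38368896-38369045), covered part of coding exon 5 and had signals of 76 and 71.

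The fourth region of Lhx2, at 78.9 kb, had signals of 89 in replicate 1 and 60 in replicate 2, a difference of 29 that was the widest among its shared regions. The fifth, at 36.9 kb, had 79 and 67. The leading regions thus lay both inside the gene and far downstream of it. The weakest shared regions were also downstream, with signals of 38 and 22 at 70.1 kb, 32 and 32 at 84.8 kb, and 46 and 37 at 85.4 kb.

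The other distal shared regions of Lhx2 were of middle rank. Upstream of the gene the signals were 42 and 42 at −5.66 kb and 64 and 66 at −2.48 kb. Inside it they were 51 and 66 at 8.37 kb, 60 and 67 at 15.7 kb and 72 and 68 at 15.9 kb, and the last 2 of these regions lay in intron 3. Beyond the gene they were 68 and 56 at 39.2 kb and 49 and 44 at 85.1 kb. The replicate 1 value stands first in each pair. Of the 17 shared regions of Lhx2, 10 had the higher signal in replicate 1, 4 in replicate 2, and 3 had equal signals. The scaling of the signal is unstated, and by percentile within each library most of these regions stood higher in replicate 2.

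Most Lhx2 peaks of replicate 1 had no counterpart in replicate 2. This held for 42 of 59 peaks, or 71.2%, against 30.2% of all replicate 1 peaks, whereas 2 of 20 replicate 2 peaks, or 10%, had none in replicate 1, against 26.9% of all replicate 2 peaks. Genes with at least as many peaks found in replicate 1 alone as Lhx2 made up 0.0503%, and with at least as many in replicate 2 alone 34.9%. Among 2150 genes with 20 or more replicate 1 peaks, 0.605% had a share without counterpart at least that of Lhx2. The total differed by 39 peaks between libraries, and 5 genes, 0.0229% of all, had a difference that large in favour of replicate 1.

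The distal peaks of Lhx2 found in replicate 1 alone numbered 30 and lay upstream of the gene or in its body, with none downstream. Upstream their signals were 32 at −23.6 kb, 28 at −5.33 kb, 33 at −1.59 kb, 31 at −1.57 kb and 28 at −1.03 kb. All 5 were weak peaks, at or below percentile 20. Between the 1.81 and 11.5 kb starts the signals were 46 at 4.25 kb, 24 at 6.35 kb, 23 at 6.39 kb, 48 at 6.95 kb, 37 at 7.17 kb, 32 at 7.43 kb and 33 at 7.81 kb. Next came 57 at 8.13 kb, 77 at 9.15 kb, 42 at 9.59 kb, 44 at 9.81 kb and 34 at 10.3 kb. The signal of 77, at percentile 81.2, was the highest among these peaks and stood next to the shared region of 79 and 74.

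Downstream of the fourth start the signals in replicate 1 alone were 30 at 14.5 kb and 42 at 15 kb in intron 2, and 58 at 15.4 kb in coding exon 3. Intron 3 held signals of 45 at 16.7 kb, 44 at 16.9 kb, 50 at 17.2 kb, 41 at 17.6 kb, 53 at 18.1 kb, 44 at 18.3 kb, 34 at 18.9 kb and 41 at 20 kb. Intron 3 thus held more of these peaks than any other intron of the longest transcript. The peaks between the 1.81 and 11.5 kb starts lie outside that transcript and were not placed in introns. A signal of 43 at 20.7 kb lay in coding exon 4 and a signal of 30 at 28.5 kb in intron 4. The peaks of Lhx2 found in replicate 2 alone had signals of 21 at 73.6 kb and 34 at 85.8 kb, both far downstream of the gene.

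Peaks of Lhx2 found in replicate 1 alone had a median signal of 41 (range 23 to 77), against 68 (range 32 to 121) for those found in both, and 9 of the 42 exceeded the library median. None of the 42 overlapped a hotspot of replicate 2, a hotspot being a wider interval that the authors called with a −log10 q of at least 1.3. In replicate 1 itself, 19 of the 42 lay in a hotspot at the deposited ceiling of 100. The same shares over all peaks found in replicate 1 alone were not worked out, so these counts cannot be set against a general rate. Hotspots covered 14384 bp of the Lhx2 body in replicate 1, or 47.2%, and 1577 bp, or 5.18%, in replicate 2. Coverage of gene bodies in general was not worked out, and depth is unknown. The widest hotspot measured 3078 bp (chr2:38349883-38352960) in replicate 1 and 645 bp (chr2:38350752-38351396) in replicate 2, and both included the strongest peak.

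Within the body Lhx2 had 42 peaks in replicate 1 and 8 in replicate 2 (25.0 ± 24.0, SD, n = 2), with 7 shared regions. An equal or larger number of body peaks was reached by 0.833%, 14.0% and 11.1% for replicate 1, replicate 2 and shared regions. Outside the body the libraries were closer, with 15 distal peaks in replicate 1 and 12 in replicate 2, and downstream of the gene replicate 1 had 8 and replicate 2 had 10. The whole Lhx2 set came to 39.5 ± 27.6 peaks (SD, n = 2), so the SD over the libraries was of the order of the mean.

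Lhx9 had shared regions at both of its clusters of starts where an overlap of 1 bp counted as shared. With an overlap of at least 75 bp 2 were left, at −0.174 and 0.316 kb, both at the upstream cluster, because the shared regions at 5.51, 6.11 and 6.99 kb had 70 bp in common. Lhx9 had 10 promoter peaks in replicate 1 and 8 in replicate 2 (9.00 ± 1.41, SD, n = 2), and 6 shared regions. Genes with at least as many promoter peaks as Lhx9 made up 0.430% of all in replicate 1, 1.00% in replicate 2 and 1.19% for shared regions. The strongest shared promoter regions had signals of 86 in replicate 1 and 83 in replicate 2 at −0.174 kb (chr1:138848656-138848845) and 88 and 81 at 6.11 kb (chr1:138842356-138842585), 1 at each cluster. The other shared promoter regions had signals of 75 and 65 at 0.316 kb, 59 and 54 at 1.23 kb, 67 and 54 at 5.51 kb and 62 and 61 at 6.99 kb.

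Lhx9 promoter peaks found in a single library were not weak. In replicate 1 alone the signals were 64 at −0.434 kb, 48 at 1.77 kb, 69 at 5.87 kb and 67 at 6.59 kb, all above the median of 47. In replicate 2 alone they were 58 at 0.526 kb and 68 at 6.79 kb, above the median of 39. Of these 6 peaks, 5 lay within a hotspot of the other library, the exception being the peak at 1.77 kb. The same share over all genes was not worked out.

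**Figure D2:**
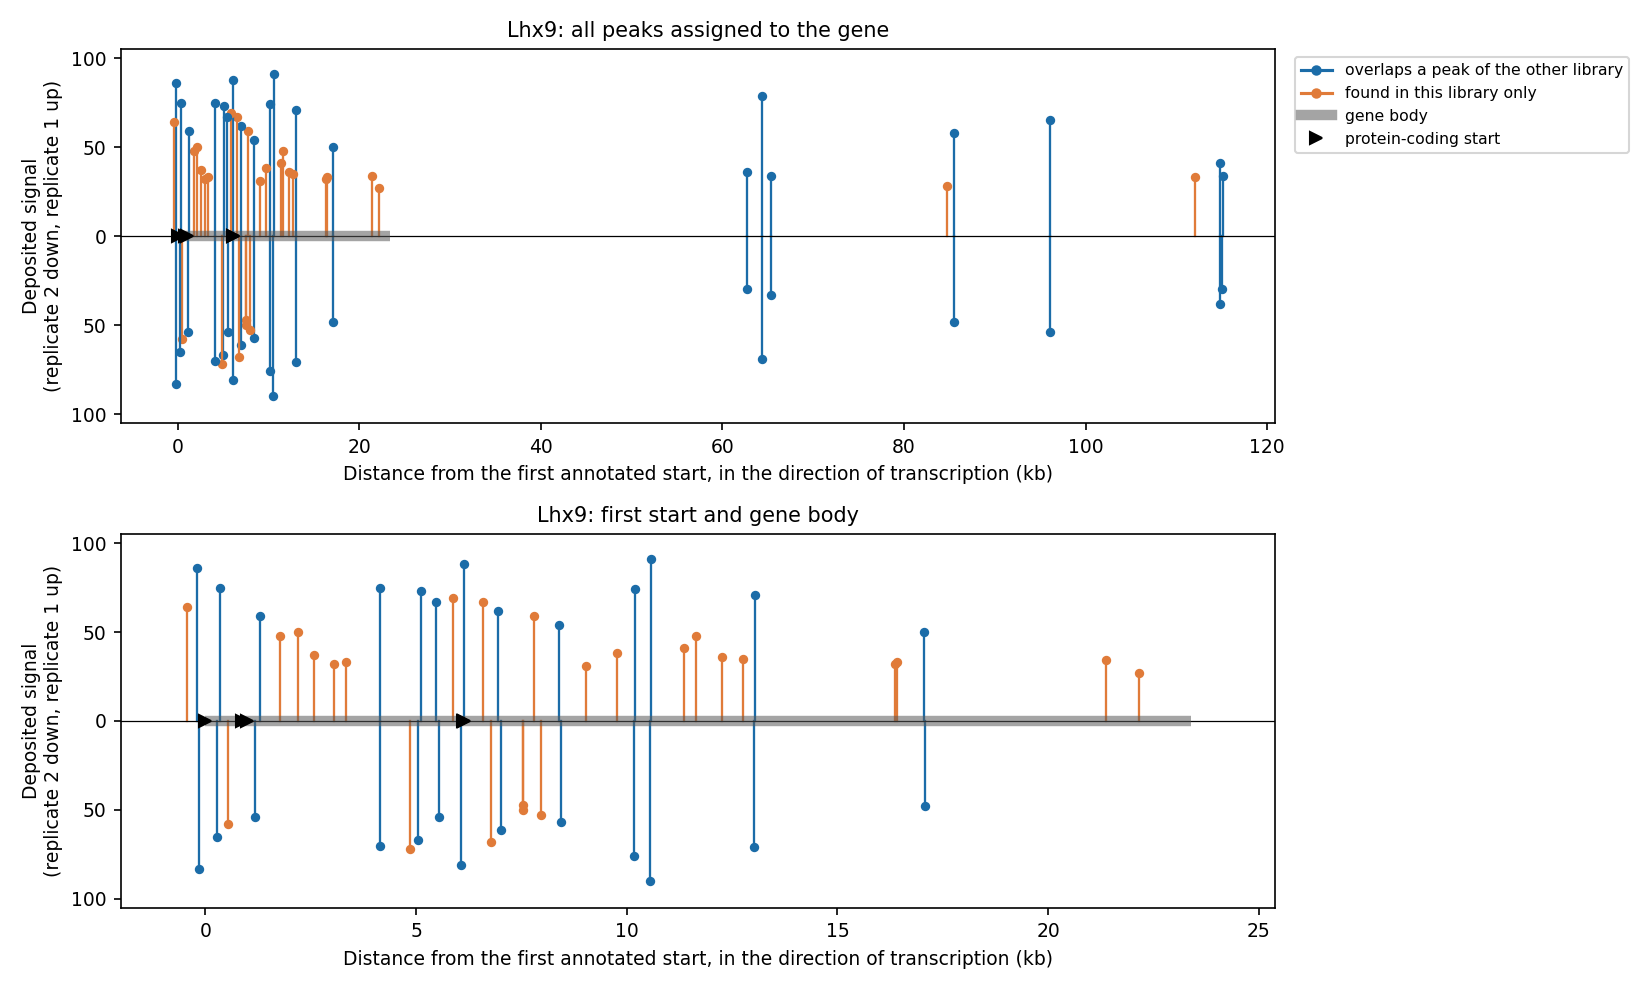
Deposited signal of every Lhx9 peak (vertical axis, replicate 1 upwards and replicate 2 downwards) against distance from the first annotated start in kb in the direction of transcription, for all peaks (upper panel) and for the gene body (lower panel). Shared regions (blue) stand at both clusters of starts, at 0 to 0.998 kb and 6.12 to 6.15 kb. The 18 body peaks found in replicate 1 alone (orange, upwards) are spread along the body from 1.77 to 22.2 kb.

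The distal peaks of Lhx9 numbered 31 in replicate 1 and 18 in replicate 2 (24.5 ± 9.19, SD, n = 2), with 14 shared regions. An equal or larger number was reached by 3.62% of genes in replicate 1, 8.73% in replicate 2 and 7.29% for shared regions. Of the 14 shared regions 7 lay in the body and 7 downstream, and none lay upstream, where the start of 2310009B15Rik is 8.28 kb away and takes the nearer peaks. In the body, promoter peaks included, replicate 1 had 30 peaks and replicate 2 had 18 (24.0 ± 8.49, SD, n = 2), with 12 shared regions. An equal or larger number of body peaks was reached by 1.86%, 4.29% and 4.89% for replicate 1, replicate 2 and shared regions.

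The leading distal region of Lhx9 lay in intron 3 at 10.6 kb (chr1:138837936-138838105), with signals of 91 in replicate 1 and 90 in replicate 2, above its promoter regions in both. The second lay beside it at 10.2 kb (chr1:138838296-138838485), covered part of coding exon 3, and had signals of 74 and 76. The third lay downstream of the gene at 64.4 kb (chr1:138784116-138784285), with 79 and 69. The fourth, at 4.15 kb between the clusters of starts, had 75 and 70. The fifth, at 13.0 kb and again in intron 3, had 71 and 71, so 4 of the 5 leading distal regions of Lhx9 lay inside the gene.

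The weakest distal shared regions of Lhx9 all lay downstream of the gene, with signals of 34 and 30 at 115.1 kb, 36 and 30 at 62.7 kb and 34 and 33 at 65.4 kb. Those of middle rank had 73 and 67 at 5.08 kb, 54 and 57 at 8.42 kb, 50 and 48 at 17.1 kb, 58 and 48 at 85.5 kb, 65 and 54 at 96.0 kb and 41 and 38 at 114.8 kb. Of the 20 shared regions of Lhx9, 17 had the higher signal in replicate 1, 2 in replicate 2, and 1 had equal signals. The scaling of the signal is unstated, and by percentile within each library most of these regions stood higher in replicate 2.

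Of the 41 Lhx9 peaks in replicate 1, 21 had no counterpart in replicate 2 (51.2%, against 30.2% of all replicate 1 peaks), and 6 of the 26 in replicate 2 had none in replicate 1 (23.1%, against 26.9% of all). Genes with at least as many peaks in replicate 1 alone made up 0.815%, in replicate 2 alone 9.96%, and with at least the same total difference 0.316%. Among the genes with 20 or more replicate 1 peaks, 3.91% had a share without counterpart at least that of Lhx9. The Lhx9 set came to 33.5 ± 10.6 peaks (SD, n = 2), and replicate 1 had 1.58 times as many peaks as replicate 2, against 2.95 times for Lhx2.

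The distal Lhx9 peaks found in replicate 1 alone lay mostly in the body. Between the clusters of starts their signals were 50 at 2.19 kb, 37 at 2.57 kb, 32 at 3.05 kb and 33 at 3.35 kb. In intron 1 a signal of 59 stood at 7.81 kb, and intron 2 held 31 at 9.03 kb and 38 at 9.77 kb. Intron 3 held 41 at 11.4 kb, 48 at 11.6 kb, 36 at 12.3 kb and 35 at 12.8 kb, around the shared regions at 10.6 and 13.0 kb. Intron 4 held 32 and 33 at 16.4 kb in overlapping peaks, and the 3′ UTR held 34 at 21.4 kb and 27 at 22.2 kb. Downstream of the gene the signals were 28 at 84.8 kb and 33 at 112.0 kb.

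The distal Lhx9 peaks found in replicate 2 alone had signals of 72 at 4.85 kb, 47 at 7.53 kb, 50 at 7.55 kb and 53 at 7.97 kb. All 4 exceeded the library median of 39. Each of the 6 Lhx9 peaks found in replicate 2 alone lay inside a replicate 1 hotspot at the ceiling of 100, and 5 of the 21 found in replicate 1 alone lay in a replicate 2 hotspot. The same shares over all genes were not worked out, so these counts cannot be set against a general rate. Hotspots covered 48.6% of the Lhx9 body in replicate 1 and 28.1% in replicate 2, with no coverage of gene bodies in general worked out beside it. The median signal of the peaks found in replicate 1 alone was 36, against 66 for those found in both, and in replicate 2 it was 55.5 against 59.

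The values next to the bounds that define the sets were as follows. The Lhx2 peaks of replicate 1 on either side of the 1 kb bound lay 988 bp and 1030 bp from a start, with signals of 23 and 28. In replicate 2 the peaks on either side lay 292 bp and 2359 bp away. For Lhx9 they lay 798 bp and 1014 bp away in replicate 1, with signals of 62 and 73, and 878 bp and 1074 bp away in replicate 2, with signals of 61 and 67. The nearest Lhx9 peaks to the bound were thus shared regions of like signal on both sides of it.

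Halfway to the next gene the sets ended far below the 500 kb limit. On the 3′ side of Lhx2 the first peak given to Nek6 lay at chr2:38433876-38434025, 81.4 kb from the nearest Lhx2 start, with signals of 51 in replicate 1 and 28 in replicate 2. On the 3′ side of Lhx9 the first peak given to Nek7 lay at chr1:138720816-138720965, 121.5 kb away, with signals of 71 and 69. On the 5′ side of Lhx2 the outermost peak lay 23.6 kb away in replicate 1 and 5.67 kb away in replicate 2. On the 5′ side of Lhx9 the first peaks given to 2310009B15Rik lay 4.53 kb away in replicate 1, with a signal of 20, and 5.03 kb away in replicate 2, with a signal of 43.

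Shared regions kept a similar order of signal in both libraries. The rank correlation of signal (Spearman rho) was 0.829 over the 17 shared regions of Lhx2 and 0.933 over the 20 of Lhx9. Regions of a gene share their libraries and neighbourhood and are not replicates, so these values are a description. The median signal of the shared regions was 68 in replicate 1 and 66 in replicate 2 for Lhx2, and 66 and 59 for Lhx9. The medians over all peaks were 47 and 39. Hotspot values differed between libraries at several of these regions. At the Lhx2 regions at −2.48, 8.37, 8.83, 11.3, 15.7 and 15.9 kb the −log10 q was 100 in replicate 1. In replicate 2 it ran from 1.52 to 1.97 there, while the signal percentile of each of these regions was higher in replicate 2. At 84.8, 85.1 and 85.4 kb the −log10 q was 1.64, 4.77 and 4.77 in replicate 1 and 100 in replicate 2. Depth is unknown, so no difference in support between libraries is read from these values.

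**Figure D3:**
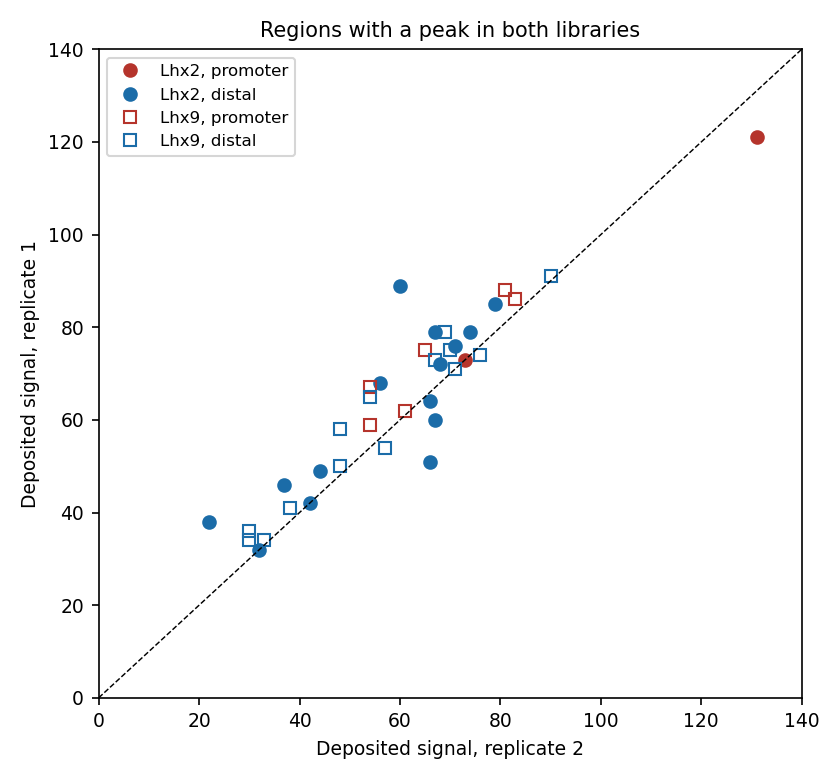
Deposited signal in replicate 1 against replicate 2 for the shared regions of Lhx2 (17) and Lhx9 (20), each point a region. The points of both genes run along a common order, with the Lhx2 promoter region of 121 and 131 apart from the rest.

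Peaks found in replicate 1 alone were poorer in GC and CpG than those found in both libraries, at Lhx2, at Lhx9 and over all genes, but the replicate 2 peaks of Lhx9 ran the other way. Peaks of Lhx2 found in replicate 1 alone had a median GC content of 51.3% and a median ratio of observed to expected CpG of 0.308, against 56.0% and 0.487 for those found in both. Over all genes the same classes had 48.7% and 0.252, against 51.3% and 0.313. For Lhx9 they had 48.7% and 0.247, against 51% and 0.417. The 6 Lhx9 peaks found in replicate 2 alone had 57.3% and 0.518, against 51.3% and 0.431 for those found in both, and the 2 such peaks of Lhx2 had 56.0% and 0.317, against 57.3% and 0.506. Over all genes the replicate 2 classes had 48.0% and 0.256, against 51.3% and 0.313.

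The 15 and 14 distal shared regions of Lhx2 and Lhx9 were searched on both strands for 14 words in the central 150 bp of each region. The homeodomain core TAATTA, the kind of site that LIM-homeodomain proteins bind, occurred in 0 of 15 Lhx2 regions and 1 of 14 Lhx9 regions, and in 5.40% of the 90766 distal shared regions of all genes. TGACAG, a site of PBX and MEIS cofactors of Hox proteins, occurred in 2 regions of Lhx2 and 4 of Lhx9 (28.6%), against 11.8% overall. In the central 100 bp of the regions the Lhx9 share was 7.14%. CCGGAAG, a site of ETS factors, occurred in none of Lhx2 and 2 of Lhx9 (14.3%), against 1.31% overall. Of these 2 regions, the region at 10.2 kb covers part of coding exon 3. A match is a description of letters and not of binding.

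AGGGGGC, the CTCF core word, occurred in 3 Lhx2 regions (20%) and 1 Lhx9 region (7.14%), against 7.09% overall. The exact 95% binomial interval for Lhx2 ran from 4.33% to 48.1%, covers counting error only, and includes the overall share. This word was added after the sequences had been read. It stands in the printed Lhx2 regions at 90.9 kb and 36.9 kb. The longer CTCF word AGNNGGCAG, with which it can overlap, occurred in 1 region of Lhx2 and none of Lhx9, against 10.9% overall.

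The E-box words CAGCTG and CATCTG, which basic helix-loop-helix factors bind, occurred in 3 and 2 Lhx2 regions and in 1 and 3 Lhx9 regions, against 16.6% and 20% overall. The AP-1 word TGACTCA and the TCF/LEF word CTTTGA each occurred in 1 region of each gene, against 2.94% and 11.7% overall. The HOX13-like word CAATAAA and the TEAD word CATTCC each occurred in 1 Lhx2 region and no Lhx9 region, against 3.98% and 11% overall. The GLI word GACCACC, the GATA word AGATAA and the control word ACTAGTC occurred in neither gene's regions, against 1.90%, 3.92% and 0.588% overall. With 15 and 14 regions, the same interval around a count of 0 reaches 21.8% for Lhx2 and 23.2% for Lhx9.

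Across the LIM-homeodomain family of 12 genes, 10 had a shared promoter region, against 66.8% of all protein-coding genes, and the median number of distal shared regions was 14.5, against 1 over all genes. Lhx2 with 15 and Lhx9 with 14 stood at the middle of the family. Lmx1b, which gives the limb its dorsal identity, had the most, 66, and Lmx1a had 28, Isl1, a factor of the early hindlimb bud and of motor neurons, 23, Lhx8 23 and Isl2 18. Lhx1 had 11, Lhx5 6, Lhx3 and Lhx4 3 each and Lhx6 2.

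The direction between libraries was not common to the family. Promoter and distal peaks together were more numerous in replicate 1 for 4 of the 12 (Lhx2, Lhx9, Isl2 and Lmx1a) and in replicate 2 for 7, and were equal for Lhx3. The differences, replicate 1 minus replicate 2, were 39 for Lhx2 and 15 for Lhx9, and ran from −12 for Lhx5 to 5 for Isl2 in the other 10. Over all protein-coding genes 38.9% had more peaks in replicate 1 and 26.3% in replicate 2, and the rest had equal numbers.

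**Figure D4:**
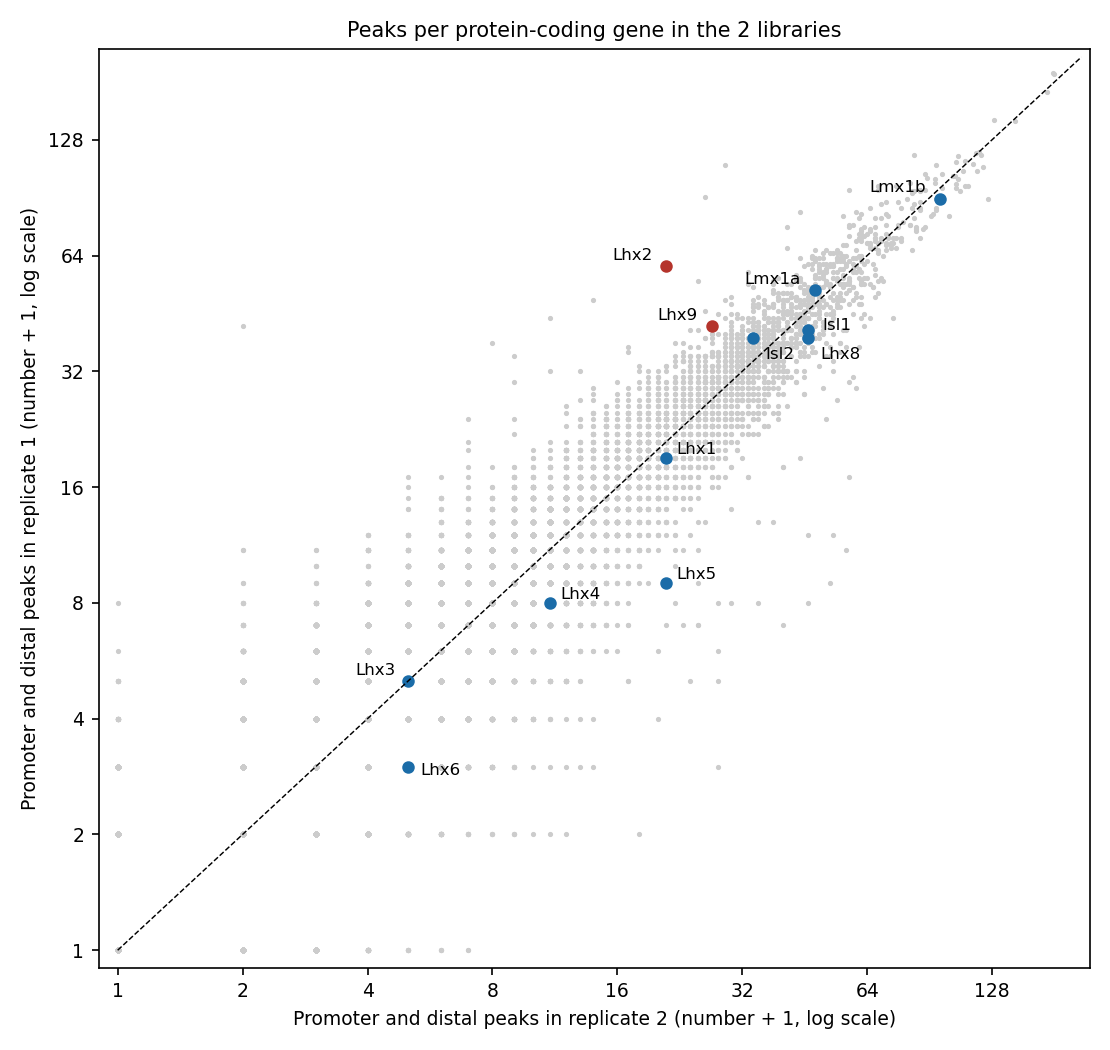
Promoter and distal peaks per protein-coding gene in replicate 1 (vertical axis) against replicate 2 (horizontal axis), as number + 1 on log scales, with Lhx2 and Lhx9 in red, the other 10 LIM-homeodomain genes in blue and all other genes in grey. Lhx2 (59 and 20 peaks) stands farther above the dashed line of equal numbers than the other family members, and Lhx5 (8 and 20) farthest below it.

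Of the cofactors that bind LIM domains or the Ldb complex, 10 of 10 genes had a shared promoter region, against 66.8% of all protein-coding genes, and the median number of distal shared regions was 9.5, against 1 over all genes. Lmo4, a LIM-only protein that competes for Ldb, had 39, Ldb2 had 30 and Ssbp3, which stabilises Ldb complexes, had 19. Their total peaks in replicate 1 and replicate 2 were 94 and 67 for Lmo4, 47 and 44 for Ldb2 and 32 and 35 for Ssbp3. Of the 10 cofactor genes 7 had more peaks in replicate 1 and 3 in replicate 2, beside 8509 and 5746 of all 21853 protein-coding genes.

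Of 20 genes of the outgrowth signals around Lhx2 and Lhx9, 18 had a shared promoter region, against 66.8% of all protein-coding genes, the exceptions being Fgf8 and Shh. The median number of distal shared regions was 17, against 1 over all genes. The highest were Wnt5a, a Wnt ligand of the growing limb tip, with 54, Dusp6, a phosphatase induced by fibroblast growth factors, with 41, and Fgfr2, their receptor, with 40. Numbers were again not scaled for the sequence nearest to a gene's starts, which ran from 16.3 kb for Gli1 to 605.6 kb for Jag1. Peaks were more numerous in replicate 1 for 12 of the 20 and in replicate 2 for 7. Over all 21853 protein-coding genes this held for 8509 and 5746, and the rest had equal numbers. Shh, the signal that Lhx2 and Lhx9 help to maintain, had 13 peaks in replicate 1 and 29 in replicate 2, opposite in direction to both genes. Fgf10, the mesenchymal signal to the ridge, had 38 and 47. Shh and Fgf10 were singled out after their values were seen.

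The neighbours of the 2 genes are paralogs in the same pairs, a DENN domain gene (Dennd1a and Dennd1b), a Crumbs cell polarity gene (Crb2 and Crb1) and a kinase of the mitotic spindle (Nek6 and Nek7). Beside Lhx2, Dennd1a had 46 peaks in replicate 1 and 45 in replicate 2, Crb2 had 11 and 17, and Nek6 had 12 and 13. Beside Lhx9, Dennd1b had 23 and 24, Crb1 had 15 and 22, and Nek7 had 22 and 25. The excess of replicate 1 peaks at Lhx2 and Lhx9 was therefore not seen at these 6 genes, of which Dennd1a had 1 more in replicate 1 and the other 5 more in replicate 2.

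Markers of limb type and of other tissues were set beside the difference between libraries. Of the 8 mesenchyme genes 5 had more peaks in replicate 1 and 3 in replicate 2, beside 8509 and 5746 of all 21853 protein-coding genes. The forelimb gene Tbx5 had 73 in replicate 1 and 61 in replicate 2, and the hindlimb genes Tbx4 and Pitx1 had 43 and 61, and 41 and 38. Of the neural genes, Olig2 had 34 and 8, Sox2 43 and 64, and Sox1 31 and 44, so 1 of 3 had more in replicate 1. Of 4 ectoderm genes 2 had more in replicate 1 (Sp8 with 45 and 41, Krt14 with 3 and 2), and Trp63 and Fgf8 had equal numbers. Of 3 muscle precursor genes 2 had more in replicate 1 (Pax3 with 68 and 67, Myf5 with 7 and 3), while Myod1 had 8 and 14. Of 3 endothelial genes 2 had more in replicate 1 (Cdh5 with 44 and 40, Kdr with 23 and 13), while Pecam1 had 9 and 14, and the 3 erythroid genes had equal numbers, at most 1 peak in each library. The part of limb type, of other tissues and of sequencing depth in the difference at Lhx2 and Lhx9 was not tested.

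The other 4 genes with a difference of at least 39 peaks in favour of replicate 1 were singled out after their values were seen. Lrrn3, which encodes a leucine-rich repeat protein, had 109 peaks in replicate 1 and 28 in replicate 2. Barhl2, a homeobox gene of the nervous system, had 90 and 25. The zinc finger gene Zfp978 had 41 and 1, and Tbx15, a T-box factor of the limb mesenchyme, had 82 and 43. Lhx2 with 59 and 20 shared its difference of 39 with Tbx15.

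Genes of like pattern were named by the Euclidean distance over log2(number + 1) of 4 counts, the promoter and distal peaks in each of the 2 libraries. For Lhx2 the nearest were Cdh6 at 1.21, Mid1 at 1.24, Fam19a5 at 1.27, Ntf3 at 1.3 and Ctnnb1 at 1.31. For Lhx9 they were Gfi1 at 0.472, Cdc42ep3 at 0.484, Oxr1 at 0.490, Arpp21 at 0.533 and Vcan at 0.535. The nearest gene to Lhx2 was thus farther away than the fifth nearest to Lhx9. Lhx2 had 14 promoter and 45 distal peaks in replicate 1 and 2 and 18 in replicate 2, against 6 and 42 and then 2 and 26 for Cdh6, which encodes a cadherin.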

How the data were processed

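DNase-seq peaks and hotspots of mouse limb were analysed for 2 biological replicates, called by the authors on mm10 for each library apart, per the labels and file descriptions. Of aligner and region caller, the name is not given in the sources used here. Each deposited peak list gives 150 bp intervals with a signal from 2 to 149 on the named chromosomes, of unstated scaling. In the deposited hotspot lists the −log10 q runs between 1.3 and 6 apart from a top value of 100, taken as a ceiling. Depth is unknown, since the lists hold no read counts.

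Peaks on the 21 named chromosomes, all inside the GRCm38 lengths, were assigned by centre to 54361 protein-coding starts of GENCODE M21. The longest protein-coding transcript placed them in exons and introns. Named were all promoter peaks and all peaks found in 1 library, the 5 highest and 3 lowest distal shared regions, the peaks at the bounds, the LIM family, the neighbours, 3 cofactors, 3 outgrowth genes and the 5 most alike genes. The markers named are those of the marker lists, and other names were chosen after values were seen. Members and lists were chosen with earlier results of these data known. No test between groups was possible. Alternatives changed the overlap, threshold, window, reach, starts, use of hotspots and libraries. Overlap, merging and assignment were tested on simulated data. Python 3.11.15, NumPy 2.4.6, SciPy 1.17.1 and Matplotlib 3.10.9 were used.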

Additional observations from a re-analysis of the deposited data

How the results depend on the processing

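The number of distal shared regions stayed within 1.5 times of the main value for both genes at an overlap of 75 bp, among peaks above the library median, as hotspots, at promoter windows of 500 bp and 2 kb and at a reach of 100 kb. At a reach of 50 kb it was 9 for Lhx2 and 7 for Lhx9, and with the starts of all annotated genes 4 for Lhx2. A single library gave 2 to 14 promoter, 18 to 45 distal and 8 to 42 body peaks for Lhx2, and 8 to 10, 18 to 31 and 18 to 30 for Lhx9. As hotspots, shared promoter regions numbered 1 and 3, and body regions 4 and 7, for Lhx2 and Lhx9. At an overlap of 75 bp Lhx9 had 2 shared promoter regions. Intervals found in replicate 1 alone numbered 9 and 7 when only peaks above the median of their own library were compared, and 23 for Lhx2 as hotspots. That comparison left 1 Lhx2 peak in replicate 2 alone, the shared region of 42 and 42 at −5.66 kb, whose replicate 1 peak is below the median of 47. Those in replicate 2 alone numbered 4 and 10 at 75 bp, 1 and 0 as hotspots, and 1 and 0 where a hotspot of the other library also counted. The cause of these changes was not tested. In the central 100 bp, TGACAG was in 7.14% of Lhx9 regions, and CTTTGA and TGACTCA in Lhx9 and AGNNGGCAG in Lhx2 were at 0%. Alternatives chosen after seeing the data left out peaks written with a decimal, which left 37 Lhx2 peaks in replicate 1 alone, and the start of 2310009B15Rik, which gave Lhx9 18 distal shared regions. Numbers found in 1 library alone have no value without the other library. No paired analysis was possible because all samples form 1 group. Unknown depth limits every statement that a peak was found in 1 library alone.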
